A study of Ichthyophis bannanicus with 29 samples.

Results

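The stomach-restricted genes of *Ichthyophis bannanicus*, a legless amphibian of the caecilian order, are 89 of the 53113 assembled genes in the deposited table. They were chosen by 2 readings of transcript levels: 20 TPM or more (TPM, the share of a gene among all transcripts of a library after division by length, scaled to a sum of 1000000) in each of the 3 stomach libraries, and a median in each of the other 9 tissues below 5% of the stomach mean. The first condition left 2881 candidates, and 3.09% of these met the second condition. The stomach levels and the tissue medians below are therefore what chose the genes, and they are given as a description with no test.

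Messenger RNA from blood, heart, kidney, liver, lung, ovary, skin, spleen, stomach and testis was sequenced in 29 libraries, 3 a tissue and 2 for ovary (replicates 1 and 3). The labels name the tissue and nothing on age, sex, strain or treatment, so whether any animal was treated is not known. The labels also do not tie libraries to animals, and a p-value here covers the spread between libraries, which may be technical. TPM keeps no sequencing depth: how many reads stand behind a value is not known.

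The vertebrate stomach stores food and starts the digestion of protein. Its glands secrete acid through a proton pump and pepsinogens, the precursors of the enzyme pepsin, its surface cells secrete a coat of mucus, and its wall is smooth muscle. In many vertebrates other than mammals, a single type of gland cell can release both acid and pepsinogen. None of this can be assigned to the genes described here: the table gives assembly identifiers only, and 0 of 39 symbols looked up for gastric gland and mucous cells, smooth muscle, red cells, pancreas and intestine were found. The label stomach could likewise not be checked against marker genes. Genes are identified below by their rank in mean stomach TPM, with at most 2 identifiers printed for a result.

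The stomach-restricted genes held a large part of the stomach's messenger RNA. Their summed level was 39.0% of all TPM in stomach replicate 1, 42.4% in replicate 2 and 27.2% in replicate 3, a mean of 36.2% ± 7.98 (SD, n = 3). Replicate 3 was the lowest, and in whole tissue fewer cells of a type and less RNA per cell cannot be told apart. In the 26 other libraries the same 89 genes summed to between 22.1 TPM in blood replicate 2 and 1604 TPM in lung replicate 3. Of the 78 assembled genes with a stomach mean of 1000 TPM or more, 25 (32.1%) were stomach-restricted, and of the 744 genes with a mean of 100 TPM or more, 69 (9.27%) were.

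That RNA was concentrated in a few genes. The gene at rank 1, TRINITY_DN7584_c0_g1, was at 135490, 113402 and 72182 TPM in stomach replicates 1, 2 and 3, which is 10.7% of all stomach TPM on average. The gene at rank 2, TRINITY_DN11110_c1_g1, was at 64233, 42361 and 84305 TPM in the same libraries, 6.36% on average. These genes did not share an order over the libraries: replicate 3 was the lowest for the former and the highest for the latter. Together they held 47.1% of the summed level of the 89 genes, 3 genes were enough for 50%, and 13 for 90%. The top 10 held 87.9%, while the 39 genes from rank 51 on held 1.00%. Between 5 and 7 of the 10 most abundant genes of each stomach library were stomach-restricted. Their mean levels ran from 23.7 TPM to 107025 TPM with a median of 318 TPM, against a median of 51.5 TPM for the 2792 other genes at 20 TPM or more in each stomach library.

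**Figure D1:**
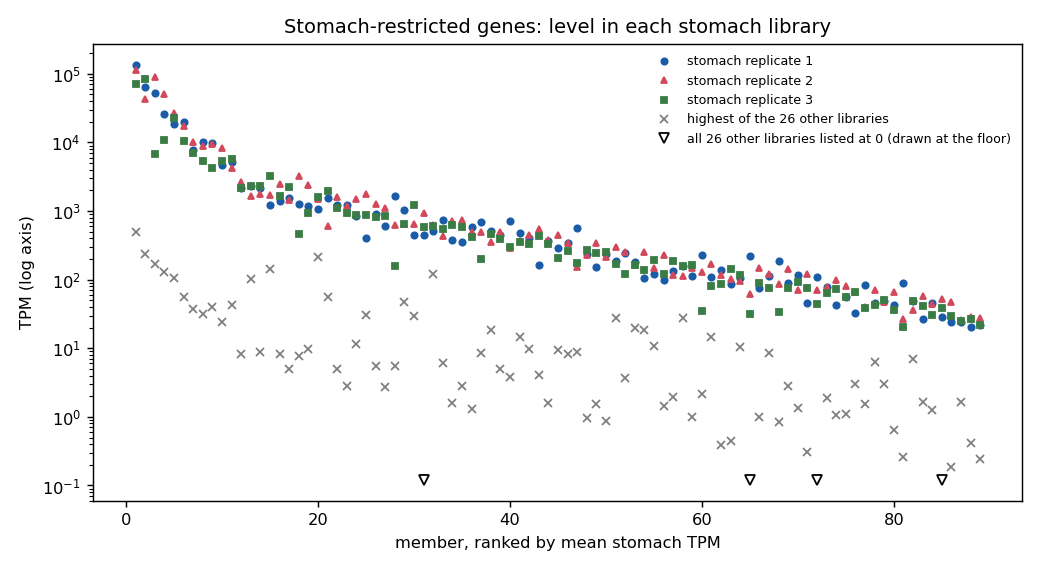
TPM on a log axis of the 89 stomach-restricted genes, ranked by mean stomach TPM, with 1 point for each stomach library and a grey cross for the highest of the 26 other libraries. The stomach points fall from a mean of 107025 TPM at rank 1 to the 20 TPM limit, and for all 89 genes they lie above the cross or, for 4 genes, above a triangle that marks 0 in all other libraries.

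The limits of the choice fell inside a continuous range. Just inside the 5% limit lay a gene with a spleen median of 4.99% of its stomach mean and one with a lung median of 4.81%; just outside lay genes with a lung median of 5.14% and a kidney median of 5.33%. The lowest stomach libraries just inside the 20 TPM limit were at 20.2 and 20.6 TPM, and those just outside at 19.9 and 17.6 TPM. Of the 2881 candidates, 57 missed the choice through 1 tissue only. That tissue was lung for 19, skin for 14, kidney for 9, spleen for 8, testis for 3, and liver and ovary for 2 each, and it was neither blood nor heart for any.

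The stomach libraries agreed on the order of the genes and differed in the size of many. Pearson's r of log2 TPM over the 89 genes was 0.959 between replicates 1 and 2, 0.941 between 1 and 3, and 0.959 between 2 and 3. These points share their libraries and span a wide range of levels. The median coefficient of variation over the 3 libraries was 30.0%, against 17.2% for the 2792 other genes. The highest library was at least 4 times the lowest for 9 of the 89 genes (10.1%) and for 30 of the others (1.07%). After rescaling to the median ratio of genes across libraries, with factors of 0.663 to 0.841 in stomach, the median coefficients of variation were 36.0% and 16.6%.

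The steadiest gene was TRINITY_DN24334_c0_g1 at rank 87, with 24.4, 26.2 and 24.9 TPM and a coefficient of variation of 3.81%. The most variable was TRINITY_DN114421_c0_g1 at rank 65, with 222.8, 60.7 and 31.9 TPM and a coefficient of 97.9%. Stomach replicate 3 was the lowest library for 8 of the 9 genes that ranged 4-fold or more. The gene at rank 3 was among them, at 51760 TPM in replicate 1, 90081 TPM in replicate 2 and 6716 TPM in replicate 3, a 13.4-fold range. From replicate 2 to replicate 3 the summed level of the 89 genes dropped by 152008 TPM, and that of the genes at ranks 1, 3 and 4 by 163786 TPM. Rank 2 was 41945 TPM higher in replicate 3, while the 85 genes from rank 5 on summed to 128067 TPM in replicate 2 and 97901 TPM in replicate 3. Replicate 3 was above replicate 2 for 25 of the 89 genes, with a median log2 difference of -0.39.

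Which stomach library was the highest depended on the scale for genes in general and less for the stomach-restricted ones. In TPM as deposited, 46 of the 89 genes (51.7%) were highest in replicate 2 and 17 (19.1%) in replicate 3, whereas 16.8% of the other genes were highest in replicate 2 and 54.8% in replicate 3. These orders are not independent, as TPM sums to 1000000 in every library. The 89 genes held 42.4% of it in replicate 2 and 27.2% in replicate 3, which leaves more TPM for all other genes in replicate 3. After rescaling, 53 of the 89 (59.6%) were highest in replicate 2 and 8 (8.99%) in replicate 3, and 39.9% and 21.4% of the other genes were. Replicate 1 was the highest for 38.7% of the other genes after rescaling. With the scale the other genes thus turned from replicate 3 to a nearly even split between replicates 1 and 2.

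**Figure D2:**
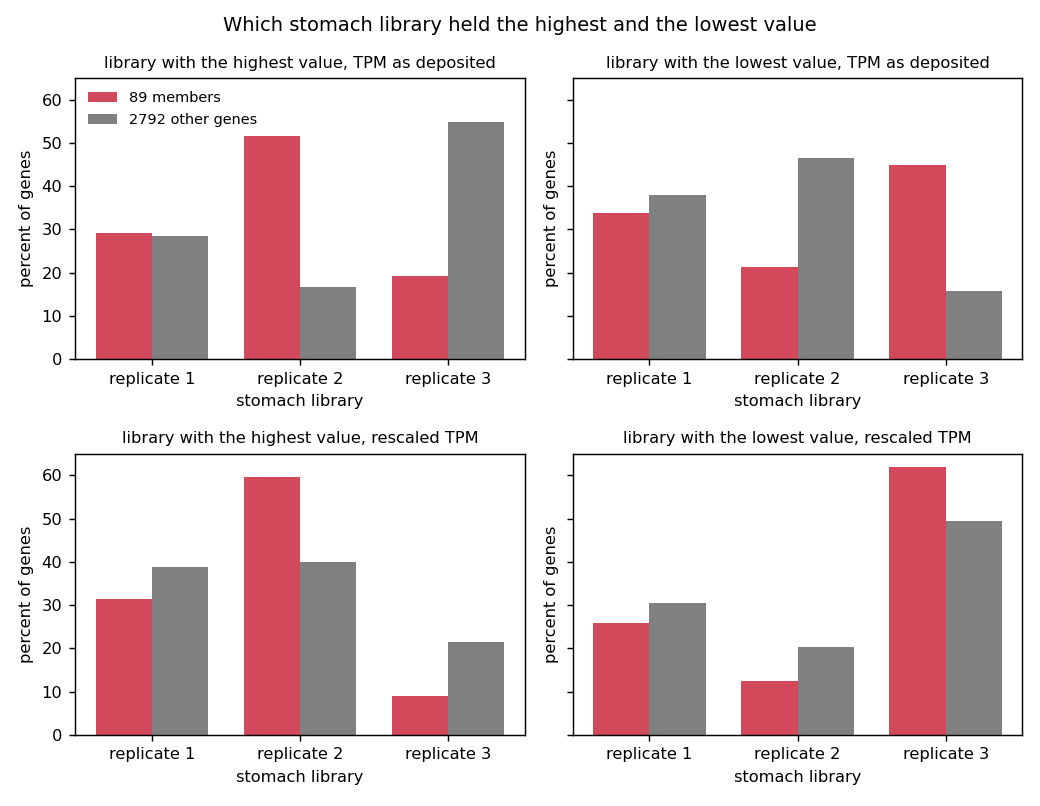
Percent of genes (bars from 0) whose highest or lowest value lay in each stomach library, for the 89 stomach-restricted genes in red and the 2792 other genes at 20 TPM or more in grey, in TPM as deposited (top) and after rescaling (bottom). The other genes are most often highest in replicate 3 as deposited, at 54.8%. After rescaling they are highest in replicate 2 for 39.9% and in replicate 1 for 38.7%. The stomach-restricted genes are most often highest in replicate 2 and most often lowest in replicate 3 on both scales.

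Outside the stomach most values were 0. Of the 2314 values of these genes in the 26 other libraries, 1369 (59.2%) were listed at 0 and 338 (14.6%) were 1 TPM or more. In 19 genes the median of every other tissue was 0, and 4 genes were listed at 0 in all 26 libraries. One of these was TRINITY_DN17322_c0_g1 at rank 31, with 439.95, 937.4 and 577.8 TPM in the stomach libraries. Another was TRINITY_DN18600_c0_g2 at rank 72, with 108.1, 71.3 and 43.6 TPM. An exact 0 in a table without counts can be a failed estimate, so no fold is given against it.

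For the 85 genes with some value above 0 elsewhere, the lowest stomach library was a median of 53.2 times the highest other library. The ratio ran from 3.99, for the gene at rank 58, to 331.8, for the gene at rank 23. The stomach libraries lay above every other library for all 89 genes, a separation that the choice makes likely. The highest other library was under 1% of the stomach mean for 43 genes, under 2% for 57 and under 5% for 72, so 17 genes reached 5% in at least 1 library although no tissue median did. A lung library was the highest other one for 52 of the 89 genes, and lung replicate 3 alone for 40.

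**Figure D3:**
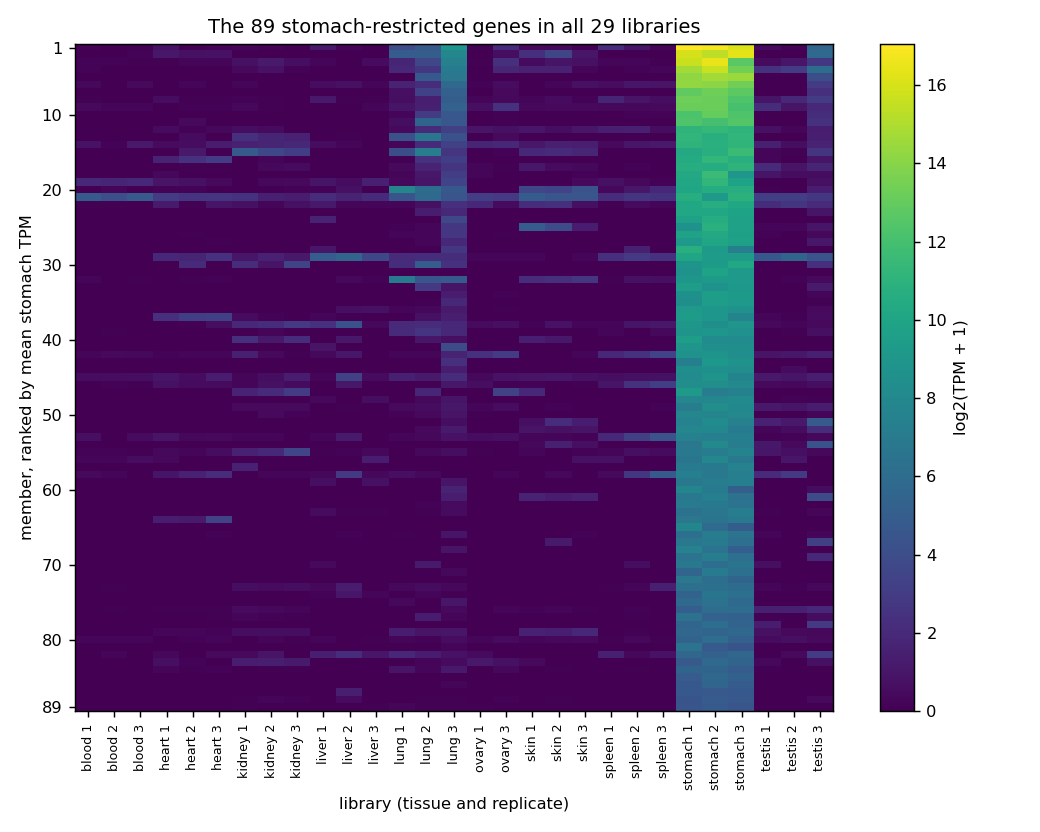
Level of the 89 stomach-restricted genes (rows, ranked by mean stomach TPM) in all 29 libraries (columns, tissue and replicate), with colour giving log2(TPM + 1). The 3 stomach columns stand out over the whole height. Lung replicate 3 is lit over ranks 1 to 11 and in some rows further down, while ranks 31 and 47 are at 0 there. A few rows are lit in other tissues, such as the gene at rank 21 in blood, lung and skin.

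By summed level, lung came next after stomach. The 89 genes summed to 470, 630 and 1604 TPM in lung replicates 1, 2 and 3, and the lung libraries held 63.0% of all TPM of these genes outside the stomach. Without lung replicate 3 the share was 40.9%, and leaving out any lung library lowers this share because fewer are summed. Carry-over from stomach into lung replicate 3 was not tested. Testis replicate 3 followed at 377 TPM, while testis replicates 1 and 2 were at 71.9 and 88.3 TPM. The skin libraries were at 105.0, 89.5 and 69.4 TPM, and liver replicate 2 was at 101 TPM. All other libraries lay between 22.1 and 87.7 TPM, with blood replicate 2 the lowest. By this sum each lung library lay above every library of the other 8 non-stomach tissues, and the testis libraries overlapped with those of several tissues. In lung replicate 1 the genes at ranks 20 and 32 made up 215 and 122 of the 470 TPM. There 17 of the 89 genes reached 1 TPM, against 35 in testis replicate 3.

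**Figure D4:**
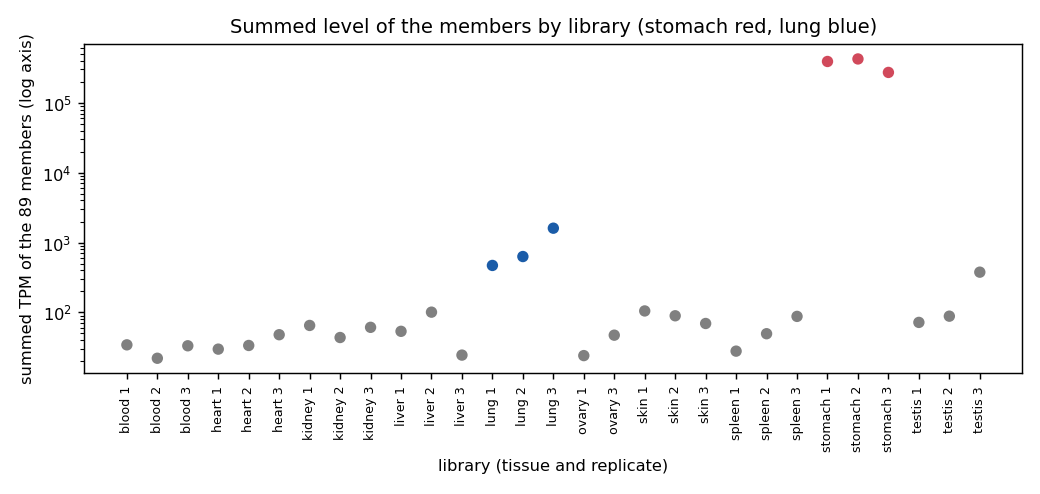
Summed TPM of the 89 stomach-restricted genes in each of the 29 libraries, on a log axis, with stomach in red, lung in blue and the other tissues in grey. Lung at 470 to 1604 TPM lies above the grey points, of which testis replicate 3 at 377 TPM is the highest.

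The order of the 9 other tissues was not used in the choice, so each was compared with the mean of the other 8, leaving stomach out of the contrast. The values were log2(TPM + 1), which understates differences of low genes. The fit took the 50365 genes that reached 1 TPM in 2 or more libraries and used limma, and a gene was called higher at a Benjamini-Hochberg adjusted p under 0.05 and a log2 difference of 1 or more. All 89 genes entered this fit because of their stomach values, and 56 of them would have passed the filter on the 26 other libraries. At least 1 tissue was called higher for 46 of the 89 genes and none for 43. The share over all genes was not counted here, so these counts are a description only. The 5% limit caps the level in every tissue, so nothing is read from a share below that over all genes.

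Lung was called higher for 27 of the 89 genes (30.3%), where 9.77% of all genes were. With the filter and fit on the 26 non-stomach libraries alone, 24 were called among the 56 that entered, where 9.65% of all 49896 genes were. These 56 passed through the very libraries compared, so nothing is read from their share. Kidney was called for 8 (8.99%), where 13.7% of all genes were, and testis for 8 (8.99%), where 18.2% were. Skin was called for 5 (5.62%, against 6.13%), spleen for 4 (4.49%, against 3.82%), heart for 3 (3.37%, against 8.40%), blood for 2 (2.25%, against 7.31%), liver for 2 (2.25%, against 6.00%) and ovary for 1 (1.12%, against 14.0%). The median log2 difference over the 89 genes was 0.44 in lung, against -0.29 over all genes tested. The difference was positive for 69 of the 89, and the share over all genes was not counted. A value in a single lung library makes it positive for a gene not seen in the other non-stomach tissues. Neither reading was repeated without lung replicate 3. In testis the median was 0.02, against 0.29 over all genes, and in the other 7 tissues it lay between -0.27 and -0.10. Without lung replicate 3 the lung count was 15 (16.9%), all of them among the 27, where 7.62% of all genes were called. Whether stomach RNA or reads carried over into lung replicate 3 contribute to the lung calls was not tested.

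Lung genes were picked for printing from those whose 3 lung libraries all lay above the other non-stomach libraries. TRINITY_DN77_c0_g2, at rank 20, was at 1083, 1497 and 1597 TPM in the stomach libraries and at 215, 62.8 and 25.2 TPM in lung replicates 1, 2 and 3. In the other non-stomach tissues it reached at most 19.9 TPM, in skin replicate 3, and lung exceeded the mean of those tissues by 5.40 ± 0.39 on the log2 scale (SE, adjusted p = 1.28e-09 by limma with Benjamini-Hochberg adjustment). TRINITY_DN4375_c0_g5, at rank 32, was at 508, 616 and 596 TPM in stomach and at 122, 22.2 and 27.6 TPM in lung. Its highest value in the other non-stomach tissues was 5.36 TPM, and lung exceeded the mean by 5.00 ± 0.29 on the log2 scale (SE, adjusted p = 3.58e-11 by limma with Benjamini-Hochberg adjustment). Lung replicate 1 was the highest for both, and both were also called higher in skin, at 9.83 to 19.9 TPM and at 3.39 to 5.36 TPM. In all, the lung libraries lay wholly above the other non-stomach libraries for 4 of the 89 genes (4.49%), where this held for 0.933% of all genes.

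The remaining lung calls were of more than 1 kind. Some had a single lung library well above the others. Rank 41 was at 0, 0 and 14.4 TPM in lung replicates 1, 2 and 3, and rank 26 at 0.249, 0.210 and 5.53 TPM. The lung call of rank 41 was lost with 0.1 in place of 1 added to TPM. The genes at ranks 13 and 15 belong to a single assembly component, so reads may have been shared between them. Rank 13 was at 17.4, 101 and 18.7 TPM in lung replicates 1, 2 and 3, and rank 15 at 15.7, 142 and 5.21 TPM. Lung replicate 2 was the highest for both. Both were called higher in kidney as well, at 1.93 to 4.11 TPM for rank 13 and 7.85 to 27.4 TPM for rank 15. The kidney call of rank 13 (1.15 on the log2 scale) was lost after rescaling (0.81) and without liver replicate 2 and the first replicates of kidney and testis (0.89). Rank 21 was above 0 in all 29 libraries and was called higher in blood, lung and skin, with 16.9 to 27.3 TPM in blood, 20.6 to 55.5 TPM in lung and 21.7 to 29.97 TPM in skin.

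Lung replicate 3 held the abundant genes at a nearly constant proportion of their stomach levels. The genes at ranks 1 to 10 were there at 0.340% to 0.504% of their stomach means, a 1.48-fold range, while their stomach means span 6048 to 107025 TPM. In lung replicate 2 the same 10 genes were at 0.020% to 0.113%, and in lung replicate 1 at 0% to 0.046%. All 10 were among the genes called higher in lung, and without lung replicate 3 the number was 6. For rank 1 the lung values were 15.0, 26.1 and 500.2 TPM, and for rank 2 they were 29.5, 31.5 and 236 TPM.

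Many genes further down the ranks were near that proportion as well, and others were at 0. Of the 89 genes, 74 were above 0 in lung replicate 3. Listed at 0 there were 2 of the 40 genes at ranks 11 to 50 and 13 of the 39 from rank 51 on. Over the 71 genes at 0.1 TPM or more the median was 0.467% of the stomach mean. Within 2-fold of it lay 53 genes, those at ranks 1 to 10 among them. Pearson's r between log2 TPM in lung replicate 3 and log2 mean stomach TPM over these 71 genes was 0.933, and the SD of the log2 ratio was 0.99. In lung replicate 2 the r was 0.623 over 55 genes with an SD of 2.45, and in lung replicate 1 it was 0.315 over 40 genes with an SD of 3.41. These points share a library and leave out genes near 0, which raises the ratio of low genes. Rank 23, at a stomach mean of 1114 TPM, was at 2.80 TPM in lung replicate 3, while rank 31, at 652 TPM in stomach, was listed at 0 there. Whether these values come from RNA made in lung or from stomach RNA or reads carried over into that library was not tested.

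**Figure D5:**
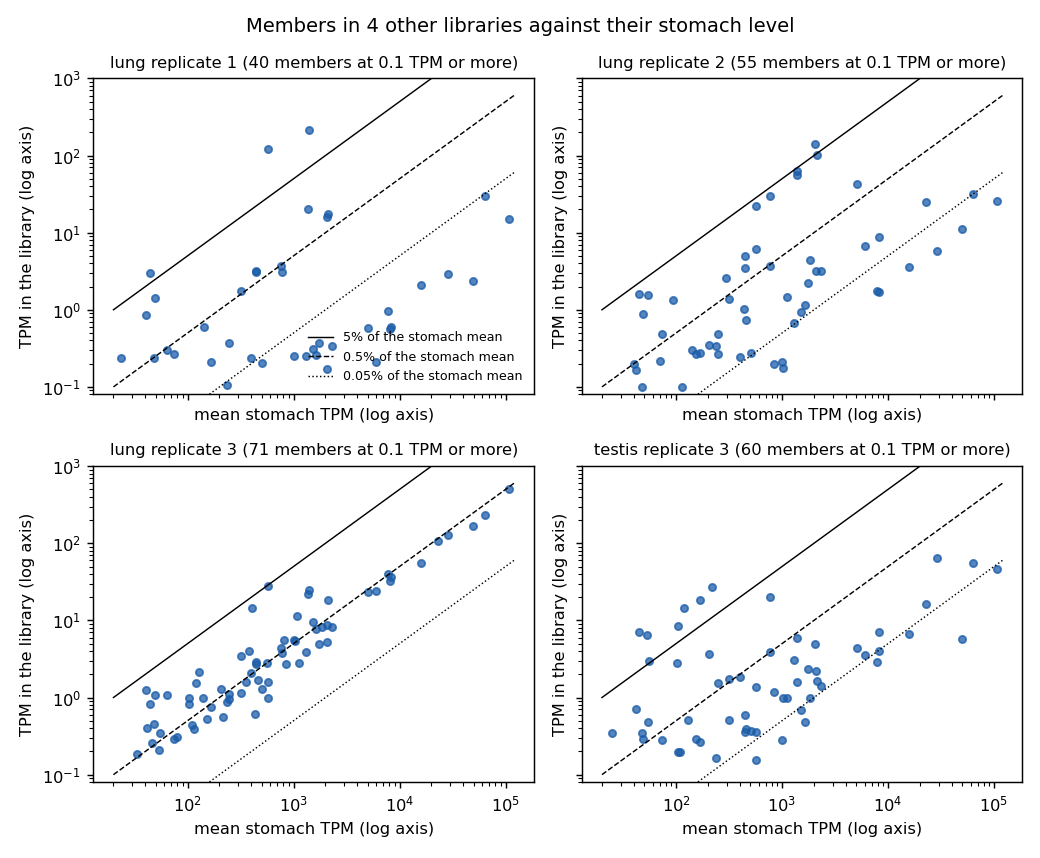
TPM in lung replicates 1, 2 and 3 and testis replicate 3 against mean stomach TPM, both on log axes, for the stomach-restricted genes at 0.1 TPM or more in that library, with lines at 5%, 0.5% and 0.05% of the stomach mean. In lung replicate 3, 53 of the 71 points lie within 2-fold of their median of 0.467%, and single points reach 4.81%; in lung replicates 1 and 2 and testis replicate 3, 3 of 40, 20 of 55 and 21 of 60 points lie within 2-fold of their library's median.

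In testis, replicate 3 held most of the signal. The genes at ranks 1 to 10 summed to 214 TPM of its 377 TPM. Rank 1 was at 0.395, 0.116 and 46.8 TPM in testis replicates 1, 2 and 3, and rank 2 at 0, 0 and 55.8 TPM. Of the 17 genes that reached 5% of their stomach mean in some other library, 7 did so in testis replicate 3, at ranks 51, 54, 61, 67, 76, 78 and 82. Rank 51 was at 1.999, 1.28 and 27.4 TPM in testis replicates 1, 2 and 3, and rank 54 at 1.18, 0.375 and 18.5 TPM. Ranks 61, 67 and 78 belong to a single assembly component and were at 12.0%, 8.18% and 12.0% of their stomach means in testis replicate 3. The first pair of these were listed at 0 in testis replicates 1 and 2. Over the 60 genes at 0.1 TPM or more in testis replicate 3, r with the stomach level was 0.514 and the SD of the log2 ratio 2.60, wider than in lung replicate 3. In ovary, ranks 1 and 2 summed to 0.074 TPM in replicate 1 and 3.62 TPM in replicate 3. Whether stomach RNA or reads carried over into testis replicate 3 or ovary replicate 3 was not tested.

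The testis gene whose libraries all lay above the other non-stomach libraries was TRINITY_DN8803_c0_g1, at rank 76. It was at 32.8, 66.9 and 65.8 TPM in stomach, at 1.77, 1.81 and 2.97 TPM in testis, and at most 0.399 TPM in the other 8 tissues, and testis exceeded their mean by 1.52 ± 0.18 on the log2 scale (SE, adjusted p = 6.77e-07 by limma with Benjamini-Hochberg adjustment). It was the only one of the 89 (1.12%), where 5.44% of all genes were so placed. Without testis replicate 3, 5 of the 89 genes and 8469 of all genes were called higher in testis, against 8 and 9162 with all libraries. Without testis replicate 1 the counts were 11 and 8499, and without replicate 2 they were 12 and 6956.

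The kidney genes with libraries above all other non-stomach ones were 2 of the 89 (2.25%), where 5.89% of all genes were. TRINITY_DN3275_c2_g2, at rank 55, was at 120, 147 and 192 TPM in stomach and at 1.91, 2.75 and 10.9 TPM in kidney, and at most 1.07 TPM in the other 8 tissues. All 3 kidney libraries were higher, by 2.03 ± 0.27 on the log2 scale (SE, adjusted p = 2.11e-06 by limma with Benjamini-Hochberg adjustment). TRINITY_DN6692_c6_g2, at rank 83, was at 26.4, 56.8 and 41.9 TPM in stomach and at 1.44, 1.67 and 1.36 TPM in kidney. Its next highest library was ovary replicate 1 at 1.20 TPM, and kidney exceeded the mean by 1.06 ± 0.20 on the log2 scale (SE, adjusted p = 3.02e-04 by limma with Benjamini-Hochberg adjustment). After rescaling this was 0.83, under the limit of 1. On that scale 4 of the 89 genes and 4981 of all genes were called higher in kidney, against 8 and 6881 in TPM. Without kidney replicate 3 the counts in TPM were 5 and 5706.

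Some genes varied widely between the libraries of a tissue. Rank 58 was at 0.362, 5.81 and 27.9 TPM in spleen replicates 1, 2 and 3, and at 6.52 TPM in liver replicate 2 against 0.266 and 0.290 TPM in liver replicates 1 and 3. Rank 53 was at 2.76, 8.38 and 19.6 TPM in spleen and at 1.35 TPM in liver replicate 2, above the 0.239 and 0.044 TPM of liver replicates 1 and 3. Beside these spleen genes, rank 64 was at 1.49, 1.35 and 10.3 TPM in heart and listed at 0 in all other non-stomach libraries. Rank 29 was at 30.4, 47.2 and 12.1 TPM in liver and at 24.5, 43.2 and 20.1 TPM in testis, and was called higher in both.

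The remaining tissues were also read for libraries lying wholly above those of the other non-stomach tissues. This held for 2 of the 89 genes in heart (2.25%, where it held for 2.77% of all genes). It held for 1 in skin (1.12%, against 2.33%) and 1 in spleen (1.12%, against 0.681%). In blood, liver and ovary it held for 0, against 2.74%, 2.07% and 5.49% of all genes. The heart genes were those at ranks 37 and 64, the skin gene was at rank 79 with 1.96, 1.73 and 2.97 TPM, and the spleen gene was the one at rank 53.

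The genes shared little in their assembly identifiers. They came from 84 assembly components, and 4 components held 2 or 3 of them, 9 genes in all; 63 genes were alone in their component in the table. Members of a component could differ over the stomach libraries. Rank 8 is of the same component as the one at rank 3 and was at 10077, 8994 and 5329 TPM, a 1.9-fold range beside the 13.4-fold range of rank 3. Rank 60, of the component of rank 1, was at 226.7, 127 and 35.2 TPM, a 6.4-fold range beside 1.9-fold for rank 1. The 84 components held 27 further genes that did not meet the choice, and 7 of them (25.9%) had their highest tissue mean in stomach, as did 5.64% of all genes. Near-identical copies could not be told apart from fragments of a gene.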

How the data were processed

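The authors deposited 1 table of TPM for 29 libraries, with gene identifiers of the form that the Trinity assembler gives. The poly-T selection and the NEBNext Ultra kit are stated per the labels' protocols. For the quantifier, its version and filters, the entry is: not given in the sources used here. Libraries were mapped to tissues by the labels, and no 2 libraries shared an equal value above 0 for any gene.

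The members, the contrasts and most alternatives were chosen with earlier results of these data known. Contrasts among the 9 non-stomach tissues were fitted with limma 3.58.1 (R 4.3.3) on log2(TPM + 1), a mean per tissue over all 29 libraries and a mean-variance trend. The step was run on simulated data with normal noise, with changes set only in genes of higher mean level. Genes at 0 in most libraries, as many of the 89 are outside the stomach, were thus not covered. Other steps used numpy 2.4.6, pandas 2.3.3, scipy 1.17.1, Python 3.11.15 and, for figures, matplotlib 3.10.9. The order of the stomach libraries after rescaling, and the choice of genes without 3 libraries, were added after seeing the data. Genes printed by identifier were the 2 most abundant, 2 of those at 0 elsewhere with the highest lowest stomach library, the steadiest and most variable, and up to 2 non-overlapping calls in lung, kidney and testis, as kidney and testis tied. Genes given by rank alone were chosen after their values were seen. The replicate numbers were not used as pairs, and by the check given with the alternatives some libraries may still be related.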

Additional observations from a re-analysis of the deposited data

How the results depend on the processing

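The number of stomach-restricted genes stayed between 69 and 109 under other limits, rescaling, each stomach library left out (97 to 104) and, added after seeing the data, without liver replicate 2 and the first replicates of kidney and testis (86, of which 84 shared). Their mean share of stomach TPM was 33.1% to 40.7% with a stomach library left out and 19.1% without the 2 most abundant genes. A pseudocount of 0.1 gave 6 genes higher in liver (3093 of all genes), 2 in ovary (7271), 9 in skin (3496) and 14 in testis (9582). It gave 37 in lung (5267), 9 in kidney (7601) and 5 in spleen (2108), and blood and heart kept their counts. Rescaling gave 4 in kidney (4981 of all genes), 7 in testis (4558), 5 in spleen (3439), 6 in skin (3524) and 3 in liver (3990). Lung kept 27 (5845), heart 3 (3516), blood 2 (6291) and ovary 1 (5872). In TPM as deposited, 9162 of all genes were called in testis, 3682 in blood and 1922 in spleen. The share over all genes thus depended on the scale. Without the 3 libraries named above liver had 1 (2945 of all genes). With each library of the tissue left out, counts ran from 5 to 6 in kidney, 1 to 2 in liver, 15 to 32 in lung, 1 to 2 in ovary, 5 to 6 in skin, 3 to 4 in spleen and 5 to 12 in testis, and were 2 in blood and 3 in heart. Each of these libraries moved its count by over 1.5 times when left out: kidney replicate 3 (5), liver replicates 1 and 2 (1 each), lung replicate 3 (15), ovary replicate 1 (2, the lone ovary library being assumed to vary like the other groups) and testis replicate 3 (5). Over all genes the calls in these fits were 5706 in kidney, 2421 and 2740 in liver, 3756 in lung, 5454 in ovary and 8469 in testis. With all libraries they were 6881, 3024, 4923, 7046 and 9162. The causes of these moves were not tested. Without lung replicate 1, lung had 32 (4166 of all genes). With a library left out, the all-gene calls ran from 2762 to 3071 in blood and 3106 to 3682 in heart. They ran from 2526 to 2796 in skin and 1453 to 2220 in spleen. With the replicate number as a block, lung had 26 (4898 of all genes) and no other count changed. Same-numbered libraries of different tissues had deviations correlated at -0.18 to 0.241 with a median of 0.013. By these low correlations the replicate number was not used as a pair. The deviations sum to 0 within a tissue, so low correlations do not show that libraries are unrelated. Still, 10 of 126 such pairs (7.94%) were over 0.1, against 8 of 252 with different numbers (3.17%). Of 29 libraries, 21 correlated best with their own number, more than an even spread over 3 numbers gives. Some libraries may thus be related, while the p-values take them as independent. The lung share of these genes' TPM outside the stomach ran from 40.9% to 58.5% with each lung library left out, added after seeing the data. Part of this fall comes from summing fewer lung libraries. Unknown depth limits all values near 0.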
